A study of Mus musculus with 4 samples.

Results

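The genes described here encode chemokines, the small secreted proteins that direct the migration of leukocytes, and the receptors that bind them. They were chosen by symbol: Ccl, Cxcl, Ccr, Cxcr or Ackr followed by a number, with Cx3cl1, Cx3cr1, Xcl1 and Xcr1. The array held 55 such genes among 19296 genes, with 59 probe sets in all, and each gene was read from the brightest of its probe sets. The 34 ligands and 21 receptors were grouped by role. The platform annotation places probe sets for the Ccl21 and Ccl27 genes under several symbols at once, so these genes were not analysed here.

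RNA came from the whole ureter of 4 male mice of a 129Sv/C57BL6 mix, with 1 mouse per array. The 2 wild type mice had the genotype miR-143/145+/+, an age of 4.5 months and kidneys labelled normal. The 2 knockout mice had the genotype miR-143/145-/-, an age of 2.5 months and hydronephrosis, a swelling of the kidney by retained urine. How the allele was made is not stated in the labels. Genotype, age and kidney state cannot be told apart in these mice, and precision is limited by the small number of arrays.

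Chemokines are sorted into families by the spacing of the first cysteines of the protein, which gives the names CC, CXC, CX3C and XC. They act through G protein-coupled receptors on leukocytes, endothelium and other cells, while the atypical receptors of the Ackr genes bind and remove or transport chemokines without that coupling. Homeostatic members are made steadily by stromal cells and place lymphocytes in tissue, and inflammatory members are induced by cytokines through NF-kB or interferon signalling. In obstructed kidney and ureter, inflammatory chemokines are known as early signals to monocytes and neutrophils.

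Values are log2 expression values, and a gene was taken as above background where both mice of a genotype exceeded log2 6.58, the 95th percentile of the means of 1024 olfactory receptor genes. The deletion was visible in the arrays: Mir145a read 8.28 and 8.42 in wild type mice, against 4.60 and 5.02 in knockout mice, and Mir143 read 7.64 and 7.85 in wild type mice, against 6.48 and 6.53 in knockout mice. They were at least 3.42-fold and 2.24-fold lower (limma adjusted p = 0.00193 and 0.0148). All 8 smooth muscle and all 9 urothelium markers tested were above background. So were all tested markers of adipocytes, fibroblasts, endothelium and macrophages, so the lists do not single out the ureter wall. The adipocyte list mean was 12.78 and 12.67 in wild type mice, against 12.45 and 11.93 in knockout mice. Of all 19296 genes, 13515 to 14231 lay above background on each array.

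No chemokine or receptor gene passed the test used for all genes. Limma passed 0 of the 55 members at an adjusted p of 0.05, where 2.38% of all genes passed (1.9% higher and 0.477% lower in knockout). The gene nearest to the threshold was Cxcl13, the attractant of B cells, at 2.18-fold lower in knockout. At an unadjusted limma p under 0.05 there were 5 members higher and 9 lower, 25.5% of the members beside 26.5% of all genes. The unadjusted 95% interval of a difference had a median half-width of 0.31 on the log2 scale. That interval is narrower than the adjusted threshold requires: Cxcl13 at -1.13 and Ccl8 at 0.64 did not pass, so differences of that size in single members can miss the threshold with 2 mice per genotype.

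Above background in at least 1 genotype were 31 of the 55 members, 22 of 34 ligands and 9 of 21 receptors. Among these 31, 27 were above it in both genotypes, and the other 4 were ligands near the background level: Cxcl10, Ccl8, Ccl20 and Ccl28. Of the remaining 24 members, 21 lay below background on all 4 arrays. Ccl3, Xcl1 and Ccr4 each exceeded it on 1 array, that of wild type replicate 2. In bulk tissue, fewer cells of a type and less RNA per cell cannot be told apart, and a receptor carried by rare leukocytes can read at background.

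**Figure D1:**
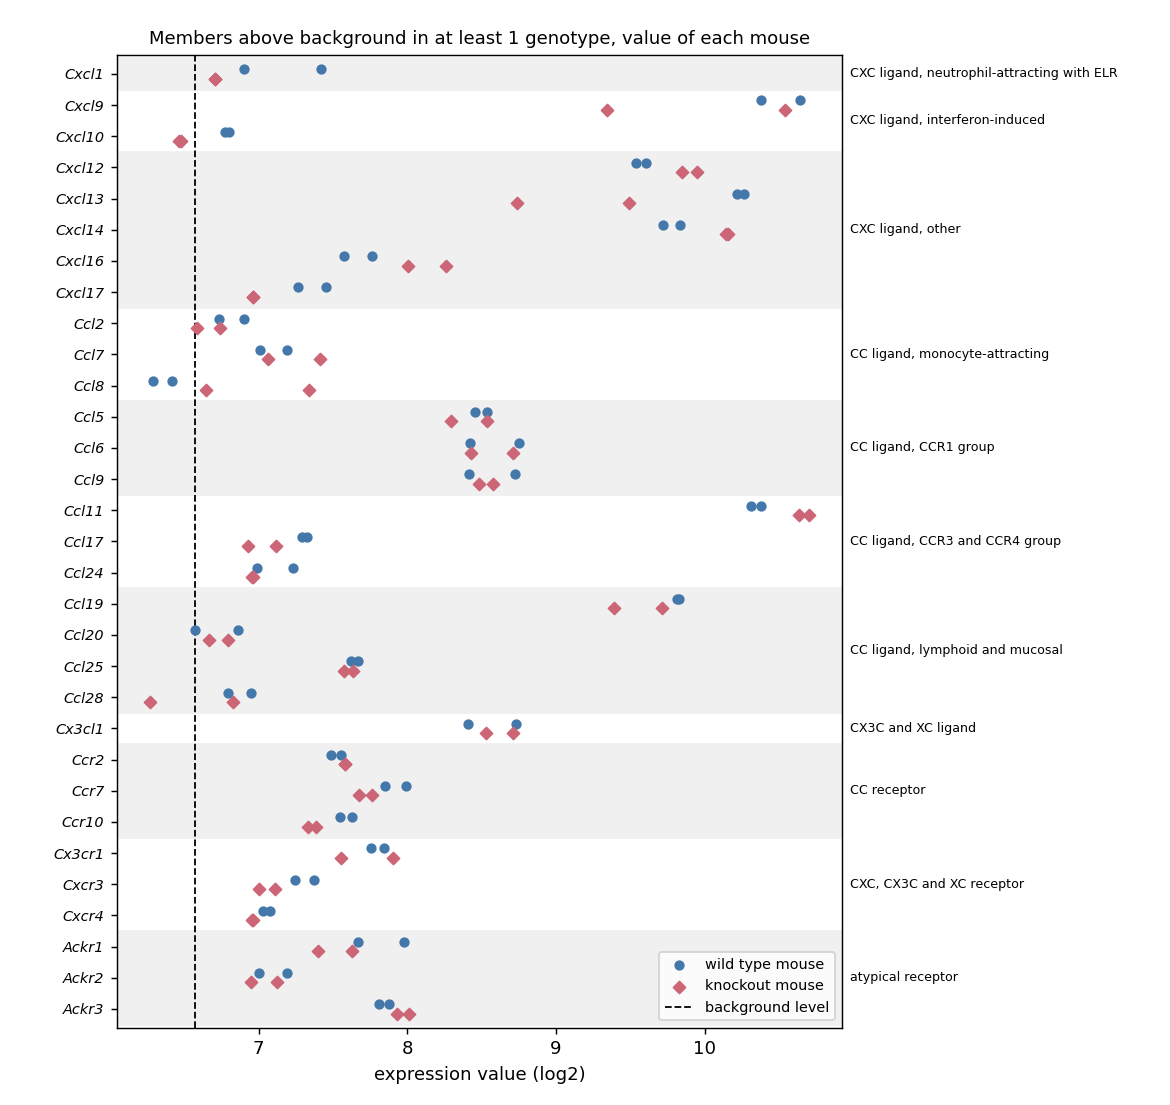
Log2 expression value (x axis) of each mouse for the 31 chemokine and receptor genes above background in at least 1 genotype, grouped by role; circles are wild type mice, diamonds knockout mice and the dashed line is the background level of 6.58. Cxcl13 lies lower in both knockout mice, while Cxcl12, Cxcl14, Cxcl16 and Ccl11 lie higher in both; probe sets differ in response, so levels are to be compared within a row and not between rows.

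Cxcl13 is made by follicular stromal and dendritic cells and draws B cells through the receptor Cxcr5. It read 10.26 and 10.22 in wild type mice, against 9.49 and 8.74 in knockout mice. Both knockout mice lay below both wild type mice, and they differed from each other by more than the wild type mice did. The mean was 10.24 ± 0.03 in wild type and 9.11 ± 0.53 in knockout (SD, n = 2 each), a difference of -1.13 (SE 0.23, limma adjusted p = 0.0562), with an unadjusted 95% interval from -1.67 to -0.58. It was the 1 member that differed by over 1 on the log2 scale. Its call rested on the settings: the adjusted p was 0.0483 with dim genes left out of the fit, 0.0496 with arrays centred on their medians and 0.0424 with robust eBayes. It did not pass with further quantile normalization (adjusted p = 0.0633), array weights (0.0588), the mean of probe sets (0.0542) or an intensity trend (0.0505). Without knockout replicate 1 the difference was -1.50 (adjusted p = 0.000394), and leaving out knockout replicate 2 gave -0.75 (adjusted p = 0.0322). Whenever a knockout mouse is left out, here and for the genes that follow, the spread within a genotype comes from the 2 wild type mice alone and the lone knockout mouse is assumed to vary like them. For Cxcl13 the SD was 0.03 in wild type and 0.53 in knockout, so these small p-values leave out the knockout spread and are no firmer evidence. With wild type replicate 1 or wild type replicate 2 left out it was -1.10 or -1.15 (adjusted p = 0.191 and 0.257), settings under which limma passed 0 of all 19296 genes, with 4253 and 3079 at an unadjusted p under 0.05.

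Its receptor gene Cxcr5 read 4.82 to 5.13 on the 4 arrays, below background throughout. Of the lymphocyte and cytokine genes tested, some passed as lower in knockout mice. Of 8 tested markers of B cells and plasma cells, 5 of them above background, 2 fell and 6 did not pass, where 0.477% of all genes fell. The median difference was -0.56. The mean of the list read 7.44 and 7.64 in wild type mice, against 6.90 and 6.46 in knockout mice. Igha, the immunoglobulin A heavy chain, fell from 9.32 and 9.43 to 7.95 and 7.63 (limma adjusted p = 0.0147). Ighm, the immunoglobulin M heavy chain, fell from 8.35 and 8.54 to 7.53 and 6.92 (limma adjusted p = 0.0399), a call lost with the mean of its probe sets (adjusted p = 0.0999). The B cell markers Ms4a1, at 5.04 to 5.44, and Cd79a were below background on all arrays. Cd79b and Pax5 were above it on all arrays and differed by -0.30 and -0.16 without passing (limma adjusted p = 0.207 and 0.412). The largest difference of the list was that of Jchain, which read 10.47 and 10.72 in wild type mice, against 9.21 and 6.90 in knockout mice. It was -2.54 and did not pass (limma adjusted p = 0.0749). The list held 3 lower genes without knockout replicate 1, and without knockout replicate 2 it held 4. Adipocyte markers were also lowest in knockout replicate 2, the mouse with the lowest Cxcl13: their list mean was 11.93 there, 12.45 in knockout replicate 1 and 12.78 and 12.67 in wild type. The part of these cells, of fat and of the cytokines that follow in the Cxcl13 values was not tested.

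Of 20 tested cytokines that can induce chemokine genes, 2 fell and 0 rose, 18 did not pass, and the median was -0.18. Over all genes 0.477% fell and 1.9% rose. Tnfsf11, which encodes the cytokine RANKL, read 8.48 and 8.59 in wild type mice, against 7.87 and 7.78 in knockout mice (limma adjusted p = 0.0394; 0.0552 without knockout replicate 2). Lta encodes lymphotoxin alpha, which is known to induce Cxcl13 in lymphoid tissue. It read 6.58 and 6.65 in wild type mice, at the background level, against 5.96 and 6.05 in knockout mice, below it, a fall of at least 1.03-fold (limma adjusted p = 0.0499). Lta no longer passed under further quantile normalization (adjusted p = 0.0823), an intensity trend (0.0528) or array weights (0.0515), nor with either knockout mouse omitted (0.0555 without knockout replicate 1 and 0.0598 without knockout replicate 2). Tnfsf13b, the B cell survival factor BAFF, differed by 0.60 the other way (adjusted p = 0.0587). Tnf, Il1b and Il6, the main inducers of inflammatory chemokines, were not above background in either genotype and differed by -0.36, -0.16 and 0.18. This list had 1 gene higher and 1 lower without knockout replicate 1, and without knockout replicate 2 it had 0 of either.

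**Figure D2:**
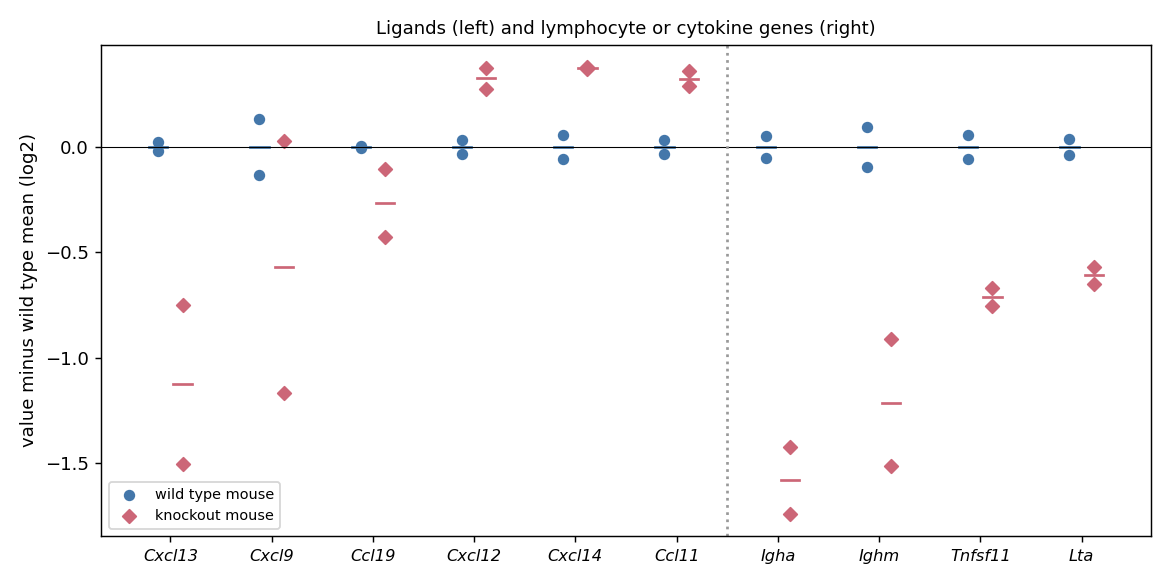
Log2 value of each mouse minus the wild type mean of that gene (y axis) for 6 ligand genes (left of the dotted line) and for Igha, Ighm, Tnfsf11 and Lta (right); circles are wild type mice, diamonds knockout mice and short bars the mean of 2 mice. The knockout mice lie apart for Cxcl13 and Cxcl9, at 9.49 and 8.74 and at 10.54 and 9.34, and close together for Cxcl14, at 10.15 and 10.14.

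The interferon-induced ligands Cxcl9, Cxcl10 and Cxcl11 neighbour each other in the genome and draw activated T cells through Cxcr3. Cxcl9 read 10.38 and 10.64 in wild type mice, against 10.54 and 9.34 in knockout mice. The genotypes overlapped: knockout replicate 1 lay within the wild type range and knockout replicate 2 lay below it. The difference was -0.57 (SE 0.35, limma adjusted p = 0.327) with an interval from -1.39 to 0.25. The value rested on a single mouse, being -1.17 (adjusted p = 0.00215) without knockout replicate 1 and 0.03 (adjusted p = 0.953) without knockout replicate 2. The SD was 0.19 in wild type and 0.85 in knockout, and the first of these p-values takes no account of the latter. Cxcl10 read 6.80 and 6.77 in wild type mice, against 6.46 and 6.48 in knockout mice, where it was below background, and was at least 1.16-fold lower without passing (limma adjusted p = 0.135). Cxcl11, listed as a transcribed pseudogene in the gene table of GRCm38.p6, was below background on all 4 arrays.

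The receptor gene Cxcr3 read 7.24 and 7.37 in wild type mice, against 7.01 and 7.11 in knockout mice, a difference of -0.25 that did not pass (limma adjusted p = 0.237). Among 9 tested markers of T cells and natural killer cells, 4 of them above background, none passed in limma (0 called, and 0 higher with 5 lower by unadjusted p under 0.05). Over all genes 26.5% had such an unadjusted p. Among the 5 lower, Cd3d, Cd2 and Ncr1 were below background on all 4 arrays. Of all genes not above background in either genotype, 73.6% had a negative difference. The mean of the T cell and natural killer cell list was 6.35 and 6.58 in wild type mice, against 6.12 and 6.09 in knockout mice. It held 1 lower gene without knockout replicate 1. Cd8a was lower by at least 1.20-fold, with knockout mice under the background level, and Cd247 differed by -0.36, without passing (limma adjusted p = 0.0954 and 0.165). Cd3e, a subunit of the T cell receptor complex, read 7.52 and 7.85 in wild type mice, against 7.34 and 7.38 in knockout mice. The interferon gamma gene Ifng differed by -0.23 and its receptor genes Ifngr1 and Ifngr2 by -0.52 and 0.31, with none past the threshold. The part of T cells in the values of these ligands was not tested.

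The stretches before the transcription starts of Cxcl13, Cxcl9 and Cxcl10 are shown because these ligands read lower in at least 1 knockout mouse and are textbook targets of NF-kB or interferon signalling. Each is the 250 bases before the start, 5′ to 3′ on the strand of the gene, from RefSeq on GRCm38.p6. Cxcl13 lies on the plus strand at chr5:95956689-95956938, Cxcl9 on the minus strand at chr5:92328080-92328329 and Cxcl10 on the minus strand at chr5:92348890-92349139. Capitals mark matches on either strand to an NF-kB-type motif (GGGA, any 4 bases, then CC), an interferon-type motif (GAAA, any 2 bases, then GAAA) or a GAS-type motif (TTC, any 3 bases, then GAA); none of the last was found in these 3 windows.
Cxcl13: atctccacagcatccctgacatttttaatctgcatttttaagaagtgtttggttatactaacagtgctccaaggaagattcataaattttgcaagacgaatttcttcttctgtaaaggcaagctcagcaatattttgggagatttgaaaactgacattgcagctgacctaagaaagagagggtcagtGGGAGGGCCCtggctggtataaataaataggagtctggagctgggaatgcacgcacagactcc
Cxcl9: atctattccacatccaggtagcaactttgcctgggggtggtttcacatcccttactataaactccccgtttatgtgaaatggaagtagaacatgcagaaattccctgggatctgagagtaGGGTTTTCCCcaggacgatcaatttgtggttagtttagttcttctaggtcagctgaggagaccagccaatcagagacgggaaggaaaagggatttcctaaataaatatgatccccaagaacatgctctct
Cxcl10: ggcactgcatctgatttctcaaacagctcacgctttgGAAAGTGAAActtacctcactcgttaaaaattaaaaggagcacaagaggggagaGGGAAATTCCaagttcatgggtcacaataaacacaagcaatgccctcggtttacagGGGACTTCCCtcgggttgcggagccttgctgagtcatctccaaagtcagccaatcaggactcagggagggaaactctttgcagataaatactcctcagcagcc

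Cxcl13 held 1 NF-kB-type match, which began 63 bases before the start, and Cxcl9 held 1, which began 130 bases before it. Cxcl10 held 2, beginning 159 and 103 bases before the start, and 1 interferon-type match that began 213 bases before it. RefSeq windows were matched for 41 of the 55 members, with 43 windows. Of these windows 39.5% (17 of 43) held the NF-kB-type motif, beside 17.6% of all 32851 windows of the same length. The genes with it included members above background and members below it, such as Cxcl2, Cxcl3 and Ccr1. The interferon-type motif was in only 3 of the 43 windows (6.98%) and in 2.98% of all. For the GAS-type motif it was also 3 (6.98%), beside 7.02% of all. The motifs can overlap one another, and a match is a run of letters and not a measured site.

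Of the other CXC ligands above background, Cxcl12, Cxcl14 and Cxcl16 read higher in both knockout mice and Cxcl17 lower. None passed. Cxcl12, made by stromal cells and the ligand of Cxcr4 and Ackr3, read 9.61 and 9.54 in wild type mice, against 9.95 and 9.85 in knockout mice, a difference of 0.33 (SE 0.12, limma adjusted p = 0.138). Cxcl14, made by epithelium and fibroblasts, read 9.72 and 9.83 in wild type mice, against 10.15 and 10.14 in knockout mice (difference 0.37, limma adjusted p = 0.106). The membrane-bound ligand Cxcl16 read 7.57 and 7.76 in wild type mice, against 8.005 and 8.26 in knockout mice, a difference of 0.47 with an interval from 0.14 to 0.80 (limma adjusted p = 0.101). For these 3 genes the genotypes did not overlap. That was so for 32 of the 55 members, 9 with knockout above and 23 with knockout below, and for 60% of all genes (28% above and 32% below), so this separation is common on these arrays.

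Cxcl17, a chemokine of mucosal epithelium, read 7.27 and 7.45 in wild type mice, against 6.97 and 6.96 in knockout mice (difference -0.40, limma adjusted p = 0.106). All 9 urothelial markers tested read higher in both knockout mice, with a median of 0.64, but 1 rose and 8 did not pass. The marker that passed, the basal cell factor Trp63, rose from 9.83 and 10.13 to 10.69 and 10.94 (limma adjusted p = 0.0486; 0.0657 with further quantile normalization and 0.0593 without knockout replicate 2). The basal keratin gene Krt5 differed by 0.64 (limma adjusted p = 0.0692). Of the urothelial markers 8 passed without knockout replicate 1, when 1744 of 19296 genes did, and without knockout replicate 2, when 569 genes did, 0 passed. Of 7 fibroblast markers tested, 3 rose and 0 fell, 4 did not pass, and the median was 0.51. Over all genes 1.9% rose and 0.477% fell. Lum, a proteoglycan of collagen fibrils, rose from 10.56 and 10.27 to 11.97 and 12.26 (limma adjusted p = 0.0147). Col1a1, a chain of type I collagen, rose from 9.74 and 10.03 to 10.67 and 11.01 (limma adjusted p = 0.0416; 0.0641 with further quantile normalization). The list mean was 10.68 and 10.72 in wild type mice, against 11.30 and 11.47 in knockout mice. The part of fibroblasts and urothelium in the values of these ligands was not tested.

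Neutrophil-attracting CXC ligands share the residues ELR before the first cysteine and signal through Cxcr2. Of 5 such genes 1 was above background, Cxcl1, which read 6.90 and 7.42 in wild type mice, against 6.71 and 6.71 in knockout mice. The knockout mice lay below both wild type mice, close to each other, while wild type replicate 2 stood highest. The difference was -0.46 (SE 0.18, limma adjusted p = 0.165), or -0.19 without wild type replicate 2 and -0.72 without wild type replicate 1. Cxcl2, Cxcl3, Cxcl5 and Cxcl15 lay below background on all 4 arrays, with values from 4.96 to 6.06. The 5 differences were negative, also with further quantile normalization or centred arrays, and none passed. The receptor genes Cxcr1 and Cxcr2 were below background throughout, Cxcr2 at 4.38 to 4.64.

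Of 8 neutrophil markers tested 1 was above background, and none passed in limma (0 called, and 0 higher with 6 lower by unadjusted p under 0.05, beside 26.5% of all genes). The list mean was 6.20 and 6.44 in wild type mice, against 5.94 and 5.96 in knockout mice, and the granule protein genes S100a8 and S100a9 were below background on all 4 arrays. The marker above it was Elane, neutrophil elastase, which differed by -0.46 (limma adjusted p = 0.0757). Dim genes in general read lower in knockout: of 5395 genes not above background in either genotype, 73.6% had a negative difference, beside 75.0% of the 24 members not above it. Of the 31 members above background 67.7% were negative, beside 44.9% of 13901 such genes. Over all 55 members 70.9% were negative and the median was -0.13, beside 52.9% and -0.02 for all genes. For all 55 the share moved with the scaling, to 58.2% with further quantile normalization and 81.8% with centred arrays (52.8% and 64.2% for all genes). The 24 members not above background had 12 negative with further quantile normalization and 21 with centred arrays, so the direction of these dim genes follows the scaling. Centring moved the median of all genes to -0.10.

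**Figure D3:**
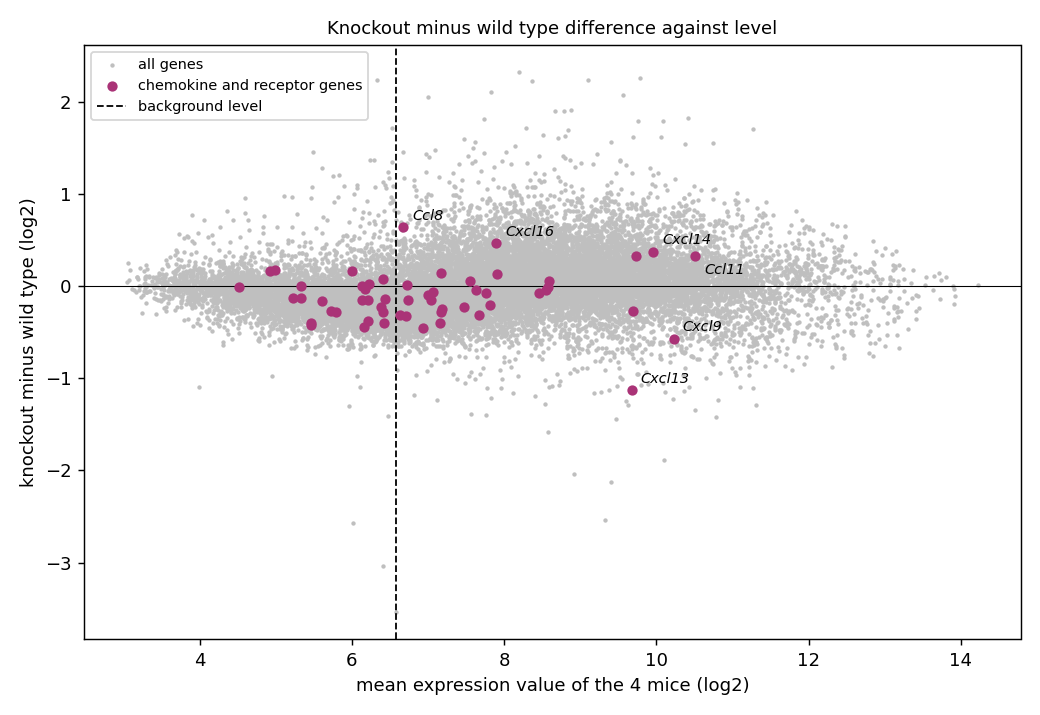
Knockout minus wild type difference (y axis, log2) against the mean of the 4 mice (x axis, log2) for all 19296 genes in grey and the 55 chemokine and receptor genes in purple; the dashed line is the background level of 6.58. Cxcl13 at -1.13 is the member farthest from 0, and 52 of the 55 members lie within 0.5 of 0.

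The monocyte-attracting ligands Ccl2, Ccl7, Ccl12 and Ccl8 bind mainly Ccr2, with mouse Ccl8 acting on Ccr8. They neighbour each other together with Ccl11 and Ccl1. Ccl8 read 6.29 and 6.42 in wild type mice, below background, against 6.65 and 7.34 in knockout mice. It was at least 1.33-fold higher without passing (difference 0.64, limma adjusted p = 0.128). Without knockout replicate 1 the difference was 0.98 (adjusted p = 0.00419), and leaving out knockout replicate 2 gave 0.29 (adjusted p = 0.386), each with 1 knockout mouse and the wild type spread. Ccl2 read 6.73 and 6.90 in wild type mice, against 6.59 and 6.74 in knockout mice, so the genotypes overlapped just above background, and the interval of the difference ran from -0.45 to 0.15. Ccl7 read 7.01 and 7.19 in wild type mice, against 7.06 and 7.41 in knockout mice and overlapped as well. Ccl12 was at 5.28 to 5.37, below background on all arrays.

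Their receptor gene Ccr2 read 7.49 and 7.55 in wild type mice, against 7.58 and 7.58 in knockout mice, with a difference of 0.06 and an interval from -0.21 to 0.33. The receptor of fractalkine, Cx3cr1, which marks resident and patrolling mononuclear cells, read 7.85 and 7.75 in wild type mice, against 7.55 and 7.90 in knockout mice. Its ligand Cx3cl1, a membrane-anchored chemokine of endothelium and epithelium, read 8.41 and 8.73 in wild type mice, against 8.53 and 8.71 in knockout mice. Both genes overlapped between the genotypes. All 12 macrophage markers tested were above background. None passed in limma (0 called, and 2 higher with 0 lower by unadjusted p under 0.05, beside 26.5% of all genes). The list mean was 8.68 and 8.64 in wild type mice, against 8.67 and 8.66 in knockout mice. Lyve1 and Mertk differed by 0.47 and 0.34 (limma adjusted p = 0.119 and 0.129). They are not typical of the list: 4 of the 12 differences were positive and 8 negative, with a median of -0.07. Without knockout replicate 1, 1 macrophage marker passed and was higher.

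Ccl3, Ccl4, Ccl5, Ccl6 and Ccl9 act on Ccr1 and related receptors and are made by myeloid cells and lymphocytes. They lie beside one another in the genome, and 3 of them were above background. Ccl5, the RANTES chemokine, read 8.46 and 8.53 in wild type mice, against 8.54 and 8.29 in knockout mice. Ccl6 read 8.42 and 8.75 in wild type mice, against 8.43 and 8.71 in knockout mice, and Ccl9 read 8.41 and 8.72 in wild type mice, against 8.57 and 8.48 in knockout mice. All 3 overlapped, with differences of -0.08, -0.02 and -0.04, and the widest interval, that of Ccl6, ran from -0.40 to 0.37. Ccl3 and Ccl4 were not above background in either genotype, and Ccr1 was at 4.78 to 5.12.

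Eotaxins draw eosinophils through Ccr3, and Ccl17 and Ccl22 draw T helper cells through Ccr4. Ccl11, the main stromal eotaxin, read 10.31 and 10.38 in wild type mice, against 10.64 and 10.70 in knockout mice. The genotypes lay apart, yet the difference of 0.32 (SE 0.11, interval 0.06 to 0.59) did not pass (limma adjusted p = 0.135). The fibroblast list given above was higher beside it, and its part in the value was not tested. Ccl24 read 7.23 and 6.99 in wild type mice, against 6.96 and 6.95 in knockout mice, and Ccl17 read 7.29 and 7.32 in wild type mice, against 7.12 and 6.93 in knockout mice. Neither passed, at differences of -0.15 and -0.28. The value of Ccl24 was -0.032 without wild type replicate 1 and -0.28 without wild type replicate 2. Ccl1, Ccl22 and Ccl26 lay below background on all arrays, as did Ccr3 and Ccr8, while Ccr4 exceeded it on 1 array.

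Ccl19, a homeostatic ligand of lymphoid stroma for Ccr7, was read by 4 probe sets that did not move together. All 4 carry the same transcript accessions, so they may read near-identical gene copies and their values are uncertain. The brightest, which was used, read 9.83 and 9.82 in wild type mice, against 9.39 and 9.71 in knockout mice (difference -0.27, limma adjusted p = 0.266). The others differed by 0.42, -0.38 and 1.32. The last of these read 6.46 and 6.22 in wild type mice, below background, against 7.82 and 7.50 in knockout mice. With the mean of the 4 probe sets the difference of Ccl19 was 0.27 (adjusted p = 0.210), so no direction can be given for it. Ccr7 read 7.85 and 7.99 in wild type mice, against 7.67 and 7.76 in knockout mice (difference -0.20, limma adjusted p = 0.317).

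The mucosal ligands Ccl20, Ccl25 and Ccl28 were near or above background. Ccl25, a ligand of Ccr9, read 7.62 and 7.67 in wild type mice, against 7.57 and 7.63 in knockout mice; its second probe set differed by 0.03 where the brighter one differed by -0.04. Ccl20 overlapped between the genotypes at 6.57 to 6.86. Ccl28, an epithelial ligand of Ccr10, read 6.80 and 6.95 in wild type mice, against 6.83 and 6.27 in knockout mice, and only knockout replicate 2 was below background. It differed by -0.32 (limma adjusted p = 0.318), by -0.60 without knockout replicate 1 (adjusted p = 0.0466) and by -0.04 without knockout replicate 2 (adjusted p = 0.931), again with 1 knockout mouse and the wild type spread. Ccr10 read 7.54 and 7.63 in wild type mice, against 7.38 and 7.33 in knockout mice, while Ccr6 and Ccr9 lay below background.

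Among the remaining receptors, Cxcr4, which guides cells towards Cxcl12, read 7.07 and 7.03 in wild type mice, against 6.96 and 6.96 in knockout mice. Its difference was -0.09 with an interval from -0.36 to 0.17, and it was 0.0052 with further quantile normalization. The atypical receptor Ackr3, which takes up Cxcl12, read 7.81 and 7.87 in wild type mice, against 7.93 and 8.01 in knockout mice (difference 0.13, limma adjusted p = 0.499). Ackr1, the Duffy antigen receptor of venular endothelium and red cells, read 7.67 and 7.98 in wild type mice, against 7.40 and 7.62 in knockout mice (difference -0.31, limma adjusted p = 0.238), and its difference was -0.16 without wild type replicate 2 and -0.20 without knockout replicate 1. Ackr2, a scavenger of inflammatory CC chemokines on lymphatic endothelium, overlapped between the genotypes at 6.95 to 7.19. Ackr4, Cxcr6 and Xcr1 were below background on all arrays. Of 8 endothelial markers tested none passed in limma (0 called, and 0 higher with 3 lower by unadjusted p under 0.05, beside 26.5% of all genes). Cldn5 and Kdr differed by -0.73 and -0.55 (limma adjusted p = 0.0587 and 0.104). Of the 8 differences 2 were positive and 6 negative, and their median was smaller, at -0.16. The list mean was 10.32 and 10.46 in wild type mice, against 10.28 and 10.09 in knockout mice.

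Of 30 ligand and receptor pairs drawn from textbook knowledge, 9 had both genes above background and 13 had the ligand alone. In 2 the receptor alone was above it and in 6 neither was. The pairs with both were Cxcl9 and Cxcl10 with Cxcr3, Cxcl12 with Cxcr4 and with Ackr3, Ccl2 and Ccl7 with Ccr2, Ccl19 with Ccr7, Ccl28 with Ccr10 and Cx3cl1 with Cx3cr1. Ligands without a receptor gene above background included Cxcl13 with Cxcr5, Cxcl16 with Cxcr6 and Ccl11 with Ccr3. A pair is a count of detected genes and no measure of signalling.

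**Figure D4:**
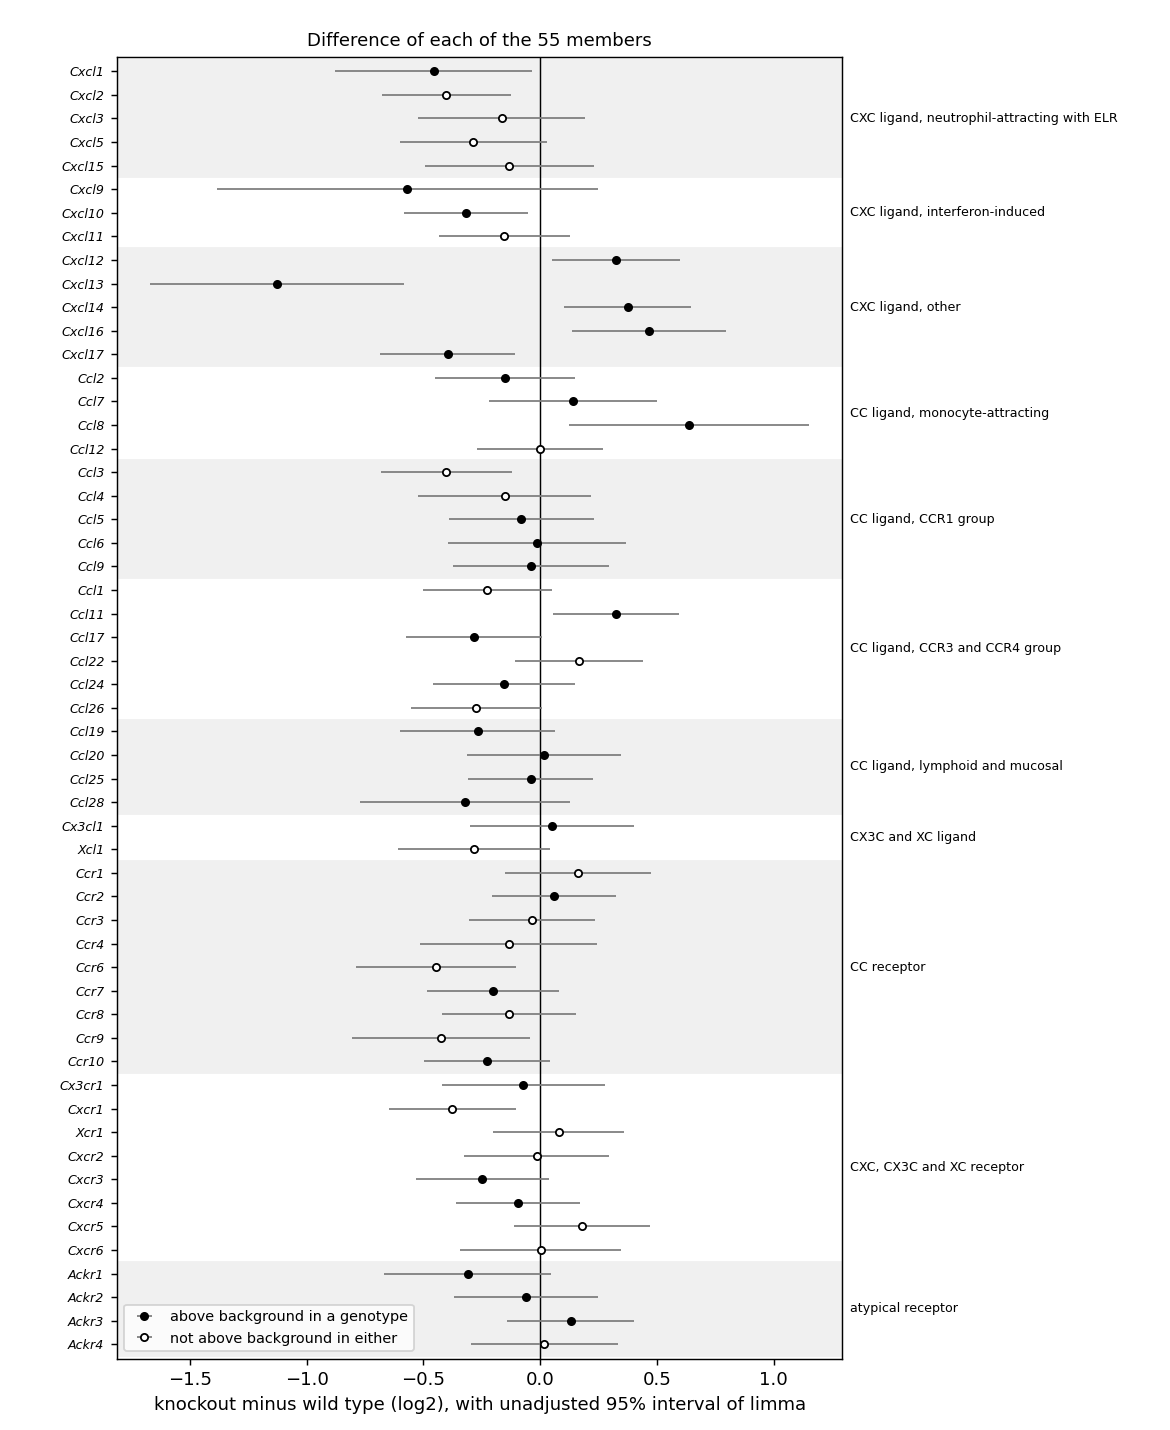
Knockout minus wild type difference (x axis, log2) of each of the 55 members by role, with the unadjusted 95% interval of limma as a bar; filled points are above background in at least 1 genotype and open points are not. Cxcl13 at -1.13 lies farthest from 0, and no member passed the threshold after adjustment over all genes.

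Genes around the family were read in lists chosen with earlier results of these data known. Their calls are therefore not set against those of the members. Of all genes, 1.9% passed as higher and 0.477% as lower. Of 17 tested relatives outside the rule for symbols, Ccrl2 rose and 0 fell, 16 did not pass, and the median was 0.06. Ccrl2, a receptor that binds the attractant chemerin without signalling, rose from 7.23 and 7.41 to 8.17 and 8.39 (1.94-fold, SE 0.13 on the log2 scale, limma adjusted p = 0.0319). Its ligand gene Rarres2 read 10.82 and 10.77 in wild type mice, against 11.24 and 10.85 in knockout mice, and the signalling receptor Cmklr1 read 8.68 and 8.93 in wild type mice, against 9.002 and 8.35 in knockout mice; neither passed. Cklf and Cmtm6 differed by 0.66 and -0.34 (limma adjusted p = 0.0627 and 0.121). The platelet chemokine gene Pf4 read 8.34 and 8.56 in wild type mice, against 8.45 and 8.44 in knockout mice. The list had 2 higher and 1 lower without knockout replicate 1, and without knockout replicate 2 it had 1 higher.

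Of 15 genes of leukocyte adhesion, which acts after chemokines arrest a cell on the vessel wall, 3 rose and 0 fell, 12 did not pass, and the median was 0.12. Of all genes 1.9% rose and 0.477% fell, so calls on these arrays were mostly towards higher. The list went both ways: 9 differences were positive and 6 negative, the lowest at -0.40. At an unadjusted limma p under 0.05 there were 5 higher and 3 lower, where 26.5% of all genes had such a p. The endothelial and stromal ligand Vcam1 differed by 0.89, its integrin partner chain Itga4 by 0.67 and the junction protein gene Jam3 by 0.61 (limma adjusted p = 0.0403, 0.0416 and 0.0490). With further quantile normalization none of the 3 passed (0.0633, 0.0614 and 0.0704), and Jam3 did not pass either with centred arrays (0.0519), array weights (0.0501) or without knockout replicate 2 (0.0622). The list had 4 higher without knockout replicate 1, and without knockout replicate 2 it had 2.

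Of 17 genes that process or present chemokines, 1 rose and 0 fell, 16 did not pass, and the median was 0.26. The shares over all genes were 1.9% and 0.477%. The gene that rose was Hpse, the heparanase that trims the heparan sulfate to which chemokines bind; it read 7.74 and 8.22 in wild type mice, against 10.28 and 10.15 in knockout mice (limma adjusted p = 0.0111). The gelatinase gene Mmp2 differed by 0.91 and the syndecan gene Sdc4 by 0.51 (limma adjusted p = 0.0586 and 0.0778). Dpp4, a peptidase that clips chemokines such as Cxcl12, differed by 0.33 without passing (limma adjusted p = 0.136). This list had 2 higher and 1 lower without knockout replicate 1. Among 23 genes of NF-kB and cytokine receptor signalling none passed in limma (0 called, and 1 higher with 1 lower by unadjusted p under 0.05). Among 26 genes acting below chemokine receptors none passed either (0 called, and 2 higher with 0 lower by the same unadjusted p). Over all genes 26.5% had such an unadjusted p. The medians of the 2 lists were -0.07 and 0.03. In the former list the kinase gene Ikbkb differed by 0.29 (limma adjusted p = 0.198). In the latter list the kinase Ptk2b differed by 0.59, Elmo1 by 0.39 and Gnai1 by -0.27 (limma adjusted p = 0.0659, 0.104 and 0.235), and 1 gene passed and was higher without knockout replicate 1.

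The other marker lists held 0 called genes in the comparison of all mice. Of all genes 26.5% had an unadjusted limma p under 0.05. At that level there were 1 lower of 6 dendritic cell markers and 2 lower of 7 mast cell markers. There were also 4 lower of 7 adipocyte markers and 2 higher of 5 lymphatic markers. Smooth muscle had 4 higher of 8, kidney tubule 1 higher of 8, and the 1 blood gene tested, Alas2, was lower. The shares of dendritic cells (16.7%), mast cells (28.6%) and kidney tubule (12.5%) lay near or below that of all genes. In order of list, the leading genes were Cd209a and Zbtb46 of dendritic cells (-0.36 and -0.31), Cma1 and Kit of mast cells (lower, with knockout mice under the background level, and -0.42), Pdpn and Mmrn1 of lymphatics (0.73 and 0.42), and Cnn1 and Myh11 of smooth muscle (0.49 and 0.35), none past the threshold. Of kidney tubule, Cubn was at least 1.75-fold higher, being below background in wild type, and Aqp2 differed by -0.34; neither passed. Kidney tubule markers set knockout replicate 1 apart, with a list mean of 8.14 in it beside 6.68 in knockout replicate 2 and 6.59 and 7.05 in wild type. Adipocyte markers set knockout replicate 2 apart, as given beside Cxcl13; Adipoq, the hormone adiponectin, and Retn, resistin, differed by -0.73 and -0.65 (limma adjusted p = 0.0869 and 0.0904). With 1 mouse left out, 5 adipocyte markers, 1 mast cell marker and Alas2 passed as lower, and 1 lymphatic and 1 kidney tubule marker as higher, without knockout replicate 1, and 5 kidney tubule markers passed as higher without knockout replicate 2. These are the mice whose omission moved Cxcl13, Cxcl9, Ccl8 and Ccl28, and the part of kidney or fat tissue in those values was not tested.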

How the data were processed

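The authors deposited 1 log2 expression value per probe set and array for 23309 probe sets. Per the submitters' processing notes, the tools were R 2.15.0 with RMA and limma 3.12.1, with no order given. Per the labels' protocols, each mouse gave 500 ng of total RNA, labelled for whole-transcript Affymetrix arrays. RMA aligns the distributions of arrays, which can shrink a shift common to most genes. No genome build is stated; coordinates come from RefSeq on GRCm38.p6.

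From the deposited log2 values, the 20728 probe sets with 1 symbol were kept and the brightest per gene was used. The genotypes were then tested with limma 3.58.1 under R 4.3.3 (lmFit, then eBayes, on all 4 arrays, Benjamini-Hochberg over 19296 genes, threshold 0.05); SE and intervals are its moderated ones, and SD is over 2 mice. The script was tested on simulated data. A fold written "at least" sets the brighter mean against the higher of background and measured value per array. Named were Mir143, Mir145a and every member above background on both arrays of a genotype. Also named were the genes of smallest p above background in each list (3 per pathway list, 2 per marker list). Cd3e, Ms4a1, Cd79a, Cd79b, Pax5, Jchain, S100a8, S100a9, Tnf, Il1b, Il6, Ifng, Dpp4, Rarres2, Cmklr1 and Pf4 were named outside this rule, after their values were seen. So were Cd3d, Cd2 and Ncr1. The members and the 20 lists were chosen with earlier results of these data known. Alternatives were a replicate block, dim genes left out, further quantile normalization, centred arrays, the mean of probe sets, eBayes with a trend or robust, weights per array, other background percentiles and each mouse left out (the genotype left with 1 mouse is assumed to vary like the other). The labels call the mice biological replicates.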

Additional observations from a re-analysis of the deposited data

How the results depend on the processing

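With all 4 mice limma passed 0 of 55 members, which was also the count with further quantile normalization, the mean of probe sets, an intensity trend and array weights. The count was 1 with dim genes left out, with centred arrays and with robust eBayes, each time Cxcl13, and 0 to 4 with 1 mouse left out. With a replicate block it was 2, Ccl8 (adjusted p = 0.0423) and Cxcl13 (0.0119), and 1922 of all genes passed where 459 did without the block. The mice share only a number: deviations of same-numbered mice correlated at -0.03. Over all genes 204 passed with further quantile normalization, 626 with centred arrays, 902 with robust eBayes and 0 to 1744 with 1 mouse left out. The median difference of the members was -0.13, and it was -0.059 with further quantile normalization, -0.21 with centred arrays and -0.19 to -0.052 with 1 mouse left out. Above background were 31 members, 37 at the 90th percentile of olfactory receptor genes and 18 at the 99th. In the lists around the family 13 of 220 genes passed, and 0 to 41 did with 1 mouse left out.

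Of 372 values of the 31 named members under an alternative, 341 kept direction and side of the threshold, 10 came to pass and 21 changed sign with none of these past the threshold. Further quantile normalization gave 0.026 for Ackr2, -0.069 for Cx3cl1 and 0.0052 for Cxcr4; centred arrays gave -0.064 for Ccl20, -0.020 for Ccr2 and -0.029 for Cx3cl1; the mean of probe sets gave 0.27 for Ccl19. With 1 mouse left out the difference ran from -0.15 to 0.035 for Ackr2, from -0.13 to 0.16 for Ccl20, from -0.20 to 0.043 for Ccl5, from -0.18 to 0.15 for Ccl6, from -0.034 to 0.31 for Ccl7, from -0.20 to 0.12 for Ccl9, from -0.11 to 0.21 for Cx3cl1, from -0.25 to 0.10 for Cx3cr1 and from -1.17 to 0.029 for Cxcl9. The cause was not tested.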
